A study of Homo sapiens with 6 samples.

Results

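RNA-seq of BT-549 cells, a line from a human triple-negative breast cancer, was examined for 10 secreted proteins of the TGF-β superfamily. The genes were chosen by name, with earlier results of these data known. They are the 3 TGF-β ligands (TGFB1, TGFB2 and TGFB3), the activin A subunit INHBA, the growth differentiation factors GDF11 and GDF15, the bone morphogenetic proteins BMP2 and BMP4, and the antagonists FST (follistatin) and NOG (noggin). All 10 have a row among the 19792 genes of the authors' deposited table. The cells carried a tetracycline-inducible WDR5 shRNA with puromycin resistance, and 3 cultures were treated with vehicle (0.1% DMSO) and 3 with 500 ng/ml doxycycline (DOX) for 7 days. Both groups carry the same shRNA vector in a single cell line, and the DOX that induces the shRNA was given to the treated cultures only.

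The value used for each gene is the mean normalized count, which the authors computed with DESeq2 as 1 mean over all 6 libraries, vehicle and DOX together. It describes how much of a transcript was present across the experiment. It has no replicate error, and it cannot show whether a gene rose or fell with DOX. Values of single libraries and the difference between DOX and vehicle are not analysed here, so no test between the groups is given for any gene. The depth of each library is unknown from these values.

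Ligands of the TGF-β superfamily are secreted dimers that are made as longer precursors and released by proteolytic cleavage. Most of them bring type I and type II receptor kinases together at the cell surface, and the receptors phosphorylate SMAD proteins that enter the nucleus. GDF15 differs, as its receptor is GFRAL with the co-receptor RET. TGF-β and activin signal mainly through SMAD2 and SMAD3, whereas BMPs signal through SMAD1, SMAD5 and SMAD9. FST binds activins and GDF11, and NOG binds BMPs, and each keeps its ligand from its receptors.

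The levels of the 10 genes were spread from the lower part to the upper part of the whole table. The mean normalized count of the median listed gene was 187, and 9 of the 10 genes lay above it. GDF15, a stress-induced cytokine that acts on the brainstem receptor GFRAL, had the highest level of the 10 at 5855, and 95.4% of all listed genes were lower. NOG had the lowest level at 6.39, with 28.6% of listed genes below it. The values of GDF15 and NOG thus lay at the ends of a range in which the other 8 genes were between 202 and 1327.

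FST, INHBA and BMP4 formed a group of near-equal means above the upper quartile of all genes, which was 1173. FST had a mean normalized count of 1327, INHBA of 1213 and BMP4 of 1198. FST is the antagonist of the activin that INHBA encodes, so both sides of this pair were transcribed. GDF11, a close relative of myostatin, had a mean normalized count of 819. TGFB1 followed at 777, TGFB2 at 559 and TGFB3 at 344. BMP2, which like BMP4 acts through the BMP type I receptors, was at 202, close to the median gene. Neighbours in this order have no error by which their order could be judged.

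**Figure D1:**
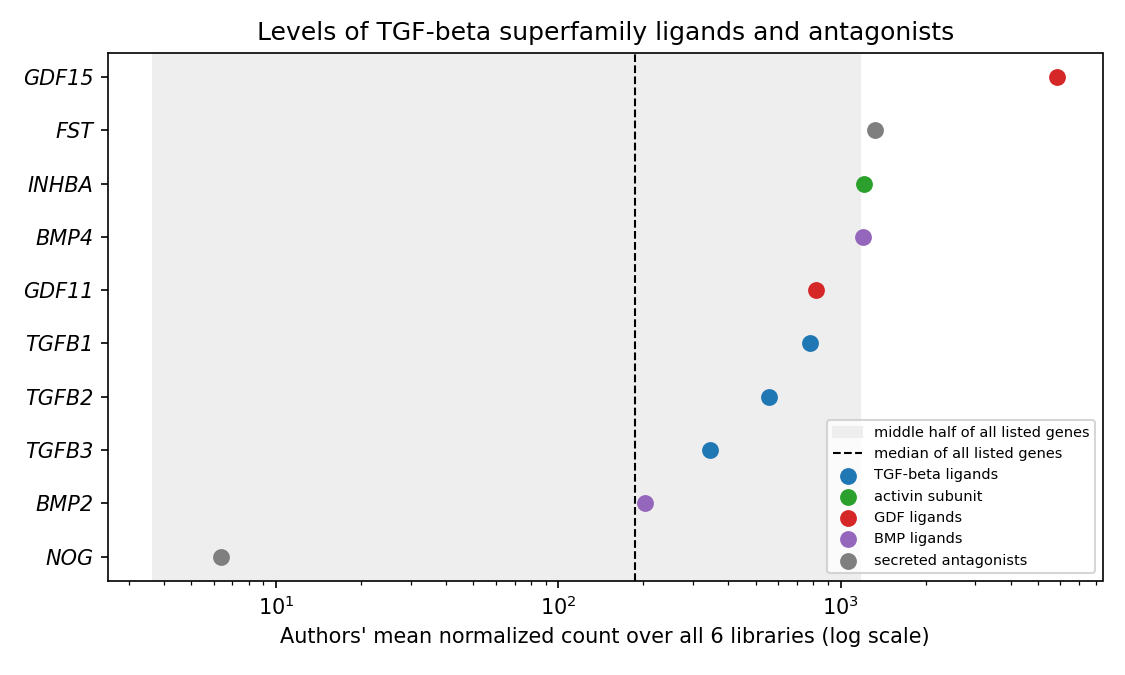
Mean normalized count of each of the 10 genes on a log axis, 1 point per gene as the authors' mean over all 6 libraries, coloured by role, with no error available. The grey band spans the quartiles of all listed genes (3.67 and 1173) and the dashed line their median of 187. GDF15 stands alone at the right (5855), FST, INHBA and BMP4 lie just past the band, and NOG (6.39) is the only gene of the 10 left of the median.

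Longer transcripts give more reads, so levels of different genes were compared per kilobase of transcript. The length used was the median over the annotated transcripts of a gene in GENCODE 44, and the longest transcript, the union of exons and, chosen after the data were seen, the canonical transcript served as alternatives. GDF15 was the highest of the 10 genes under all 4 lengths, with a level per kilobase of 4879 by the median length and of 2806 by the union of exons. NOG was the lowest under all 4 lengths, at 3.34 per kilobase. BMP2 was next to last under all 4, at 57.0 per kilobase. BMP2 and NOG each have 1 annotated transcript, so their values do not depend on the choice. For TGFB1, BMP4 and FST the median length is 1084, 1112 and 712 bases. That is shorter than their canonical coding sequences of 1170, 1224 and 1032 bases. The levels of these genes by the median length are higher than by each alternative. GDF15 made up 49.8% of the summed level per kilobase of the 10 genes by the median length, 66.8% by the longest transcript and 70.7% by the canonical transcript.

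Among the TGF-β ligands, TGFB1 had the highest level per kilobase under every length. Its level per kilobase was 717 by the median length and 279 by the canonical transcript. The ratio of TGFB1 to TGFB2 was 4.21 by the median length and 2.58 by the union of exons, and that of TGFB1 to TGFB3 was 2.67 and 3.62. The order of TGFB2 and TGFB3 depended on the length. The ratio of TGFB2 to TGFB3 per kilobase was 0.635 by the median length, 0.951 by the canonical transcript and 1.40 by the union of exons. For these ligands the precursor has a similar coding length, with 390 codons in TGFB1, 414 in TGFB2 and 412 in TGFB3, whereas the canonical transcripts have 2780, 5868 and 3431 bases.

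The 2 BMP ligands differed more in level. BMP4 had a level per kilobase of 1077 by the median length and of 387 by the union of exons, which was 18.9 and 6.78 times that of BMP2. By the longest and by the canonical transcript the ratio of BMP4 to BMP2 was 10.9. GDF15 exceeded GDF11 by 30.0 times per kilobase by the median length, and by 52.5 times with the canonical transcripts of 1200 bases for GDF15 and 8801 bases for GDF11. Without any correction for length, the ratio of GDF15 to GDF11 was 7.15.

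FST exceeded INHBA under every length, with a ratio per kilobase of 3.08 by the median length and 2.61 by the longest transcript. The mean normalized counts of the 2 genes, which take no account of length, had a ratio of 1.09. FST and BMP4 exchanged places with the length used. FST had 1864 per kilobase by the median length, drawn from annotated transcripts with a median of 712 bases, and 577 by its canonical transcript of 2299 bases, against 620 for BMP4. The ratio of BMP4 to its antagonist NOG was 322 by the median length and 116 by the union of exons, so the BMP ligand was above noggin throughout that range.

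**Figure D2:**
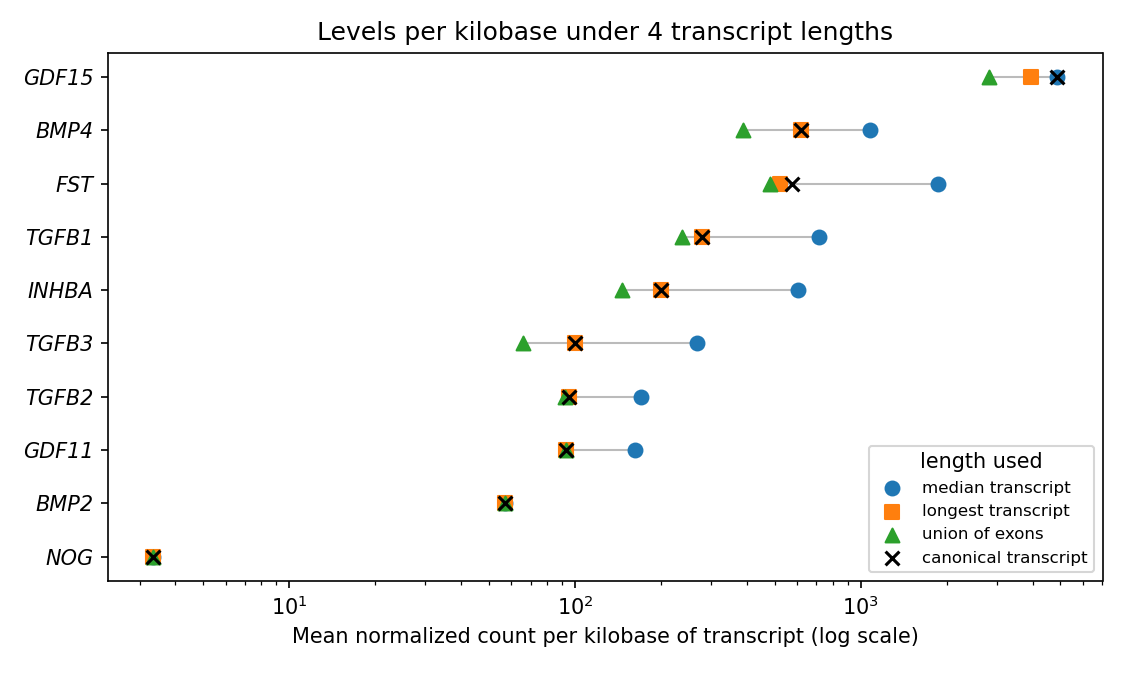
Mean normalized count per kilobase of the 10 genes on a log axis, with a marker for each of 4 transcript lengths and a grey line over their range, which reflects the choice of length and is no replicate error. GDF15 (2806 to 4879) stays above all others, BMP2 (57.0) and NOG (3.34) stay lowest, and FST moves from 1864 to 482.

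The genes lie at separate places in the genome (GRCh38, GENCODE 44), and positions are given for the genes that set the range. GDF15 is on chromosome 19 from 18374731 to 18389176 on the plus strand, with 2 exons in its canonical transcript. NOG is on chromosome 17 from 56593699 to 56595611 on the plus strand, with a single exon. TGFB1 is also on chromosome 19, from 41301587 to 41353922 on the minus strand, and has 7 canonical exons, as do TGFB2 and TGFB3. TGFB2 is on chromosome 1 from 218345336 to 218444619, and TGFB3 is on chromosome 14 from 75958097 to 75983011. BMP4 is on chromosome 14 as well, from 53949736 to 53958761.

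Exons of some of these genes overlap exons of a gene on the opposite strand. TGFB1 overlaps HNRNPUL1, an RNA-binding protein gene with a mean normalized count of 9032. GDF11 overlaps SARNP, at 2287. The library kit marks the strand, but the strand setting used for counting is not given in the sources used here, and without it reads of such partners cannot be told apart. Antisense RNAs overlap TGFB2 and INHBA, and TGFB2-AS1 and INHBA-AS1 were low, with mean normalized counts of 4.08 and 5.60. Antisense RNAs also overlap TGFB3 and BMP4, and TGFB2-OT1 overlaps TGFB2 on the same strand, and no value of these was analysed here. GDF15, BMP2, FST and NOG have no overlapping exon of another gene in this annotation.

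Promoter sequences of RefSeq (GRCh38.p14) were matched to 8 of the 10 genes by symbol, and none was matched for BMP2 and NOG. The window ran from 250 bases before to 50 bases after the transcript start that the RefSeq table uses. That start is the first base of the GENCODE gene for TGFB1, TGFB2, TGFB3 and GDF11, but lies inside the span of the GENCODE gene by 3 bases for FST, 2744 for INHBA, 3711 for BMP4 and 11427 for GDF15. The TGF-β ligands and GDF15 are shown because related ligands with unlike levels can be read side by side. The 250 bases before the start are printed 5′ to 3′ on the strand of the gene, with matches to the searched motifs in capitals.
TGFB1, chr19:41353923-41354172, minus strand: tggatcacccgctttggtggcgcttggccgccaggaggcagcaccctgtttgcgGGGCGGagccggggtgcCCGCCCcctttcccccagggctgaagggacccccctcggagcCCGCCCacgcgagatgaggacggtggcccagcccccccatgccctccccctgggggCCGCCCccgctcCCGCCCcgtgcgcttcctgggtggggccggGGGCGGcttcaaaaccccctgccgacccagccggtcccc
TGFB2, chr1:218345086-218345335, plus strand: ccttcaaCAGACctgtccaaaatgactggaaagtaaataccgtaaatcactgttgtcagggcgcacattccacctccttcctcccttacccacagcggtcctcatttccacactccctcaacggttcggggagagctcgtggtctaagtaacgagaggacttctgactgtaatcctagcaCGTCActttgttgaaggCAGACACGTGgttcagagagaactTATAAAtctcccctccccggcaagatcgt
TGFB3, chr14:75983012-75983261, minus strand: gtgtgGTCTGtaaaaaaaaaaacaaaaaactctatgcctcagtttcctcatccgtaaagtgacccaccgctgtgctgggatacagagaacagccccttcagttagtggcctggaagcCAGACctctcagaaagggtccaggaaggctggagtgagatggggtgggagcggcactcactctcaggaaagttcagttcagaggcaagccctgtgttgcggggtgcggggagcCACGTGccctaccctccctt
GDF15, chr19:18385908-18386157, plus strand: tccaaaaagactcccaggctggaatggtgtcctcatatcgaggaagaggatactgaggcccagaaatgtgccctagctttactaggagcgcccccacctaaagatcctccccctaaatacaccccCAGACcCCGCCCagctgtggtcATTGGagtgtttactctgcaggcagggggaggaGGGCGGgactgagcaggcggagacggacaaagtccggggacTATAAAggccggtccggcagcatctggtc

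The motifs were searched on both strands. They were the TATA box (TATAAA), the GC box (GGGCGG), the CCAAT box (CCAAT), a SMAD motif (CAGAC), an AP-1 motif (TGANTCA), an E-box (CACGTG), the core of a cAMP response element (TGACG) and the NF-κB motif. The TGFB1 window had a GC content of 77.3%, above that of 94.4% of the 27305 promoters searched, and held 7 GC boxes, of which 1 lies after the start and is not printed, and none of the other motifs. The TGFB2 window had a GC content of 51.7% and held a TATA box from -29 to -24, counted from the RefSeq start as 0. It also held 2 SMAD motifs and a cAMP element core, and its E-box shared 1 base with the nearer SMAD motif. The TGFB3 window, with a GC content of 56.0%, held 2 SMAD motifs and an E-box but no TATA box. The GDF15 window held a TATA box from -29 to -24 of its own RefSeq start, together with 2 GC boxes, a CCAAT box and a SMAD motif.

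Over the 8 windows, a TATA box was found in 4 (TGFB2, INHBA, GDF11 and GDF15), where 12.0% of all promoters held it. The match lay from -33 to -28 of the RefSeq start in GDF11, but nearer the start in INHBA, from -11 to -6. A SMAD motif was found in 5 windows, and in 45.0% of all promoters. GC boxes were found in 5 windows and in 44.6% of all promoters. A CCAAT box was found in 4 windows and in 35.7% of all promoters. The cAMP element core was found in 3 windows and in 25.0% of all promoters, and an E-box in 2 windows and in 7.43% of all promoters. FST alone of the 8 held an AP-1 motif and an NF-κB motif, which 7.76% and 5.72% of all promoters held. The median GC content was 61.5% over the 8 windows and 58.3% over all promoters. These matches describe letters in a short window and were not tested against the levels.

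The other ligands of the superfamily were low. Of 25 such genes, 20 have a row, and 6 of these reached a mean of 10 or more, against 9 of the 10 genes described above and 68.5% of all listed genes. A mean of 1 or more was reached by 12 of the 20, by all 10 of the genes described and by 83.9% of all listed genes. The median over the 20 genes was 2.99, beside 798 for the 10 genes and 187 for all genes. The highest per kilobase by the median length were BMP7, INHBE and GDF5, with mean normalized counts of 130, 95.1 and 64.6. No other ligand with a row thus had a mean normalized count above that of BMP2. Per kilobase by the median length, BMP7 (182) was above TGFB2 (170), GDF11 (163) and BMP2 (57.0), and INHBE (83.2) was above BMP2. By the canonical transcript BMP7 (32.4) and INHBE (38.6) were both below BMP2. The 10 genes were picked with earlier results of these data known, so this contrast only describes them.

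Of 12 other secreted antagonists, 9 have a row and 4 of these (44.4%) reached a mean of 10, against 68.5% of all listed genes. The highest per kilobase under all 4 lengths were CHRDL1, a chordin-like BMP antagonist, TWSG1, which acts with chordin on BMPs, and FSTL3, a relative of follistatin. Their mean normalized counts were 5979, 2657 and 608. CHRD, which encodes chordin, was at 2.60. The median of the 9 genes was 4.43. Per kilobase, NOG was at 3.34 while CHRDL1, which also acts on BMPs, was at 2478 by the median length and 1549 by the canonical transcript.

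TGF-β is secreted in a latent complex with LTBP proteins and is freed by integrins, thrombospondin or proteases. All 13 genes of latency and activation have a row, with a median of 249. A mean of 10 was reached by 10 of them (76.9%), against 68.5% of all listed genes. Without correction for length, 8 of the 13 lay above the median gene. Per kilobase by the median length, 6 did, and their median was 106, below the 166 of all genes with a length. The highest per kilobase by the median length were THBS1, which encodes thrombospondin 1, at a mean normalized count of 10841, LTBP1 at 3581 and LTBP3 at 2801. THBS1 stayed the highest under all 4 lengths, whereas by the canonical transcript ITGAV (677) was above LTBP3 (579) and LTBP1 (551). The integrin subunit gene ITGAV had a mean normalized count of 4763, whereas its partner ITGB6 was at 1.29 and ITGB8 at 174. FURIN, a protease that cleaves the precursors, was at 243, whereas the protease genes PCSK5 and PCSK6 of the same list were at 0.685 and 3.81.

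Receptors for TGF-β, activin and BMP ligands were transcribed. Of 20 receptor and co-receptor genes, 17 have a row, and their median was 646. A mean of 10 was reached by 15 of the 17 (88.2%), against 68.5% of all listed genes. Without correction for length, 13 of the 17 lay above the median gene. Per kilobase by the median length, 10 did, and their median was 200, beside 166 for all genes with a length. The 3 highest per kilobase under all 4 lengths were RGMB, a BMP co-receptor, at a mean normalized count of 3094, and the TGF-β receptors TGFBR1 at 5624 and TGFBR2 at 2961. The BMP receptors BMPR2 and BMPR1A were at 2148 and 986. The activin receptors ACVR1B, ACVR2A and ACVR2B were at 646, 198 and 193. GFRAL, the receptor of GDF15, has no row among the genes analysed here, and its co-receptor RET was at 15.3.

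All 12 genes of SMADs and their direct regulators reached a mean of 100 or more, with a median of 1430 and a lowest value of 288, where 54.6% of all listed genes reached 100. The highest per kilobase by the median length were SKI, SMAD5 and SMAD2, with mean normalized counts of 2966, 3591 and 2753. By their canonical transcripts the levels per kilobase were 488, 512 and 79.5, so SKI and SMAD5 stayed the highest of the 12 while SMAD2 did not stay among them. The 11 SMAD target genes, of which SMAD6, SMAD7 and SKIL are in both lists, also reached 100 or more, with a median of 2603. TGFBI, an extracellular matrix protein induced by TGF-β, was at 11827. The BMP-responsive genes ID3 and ID1 were at 7636 and 4006. Such genes also respond to other signals, and the difference between DOX and vehicle is not analysed here.

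**Figure D3:**
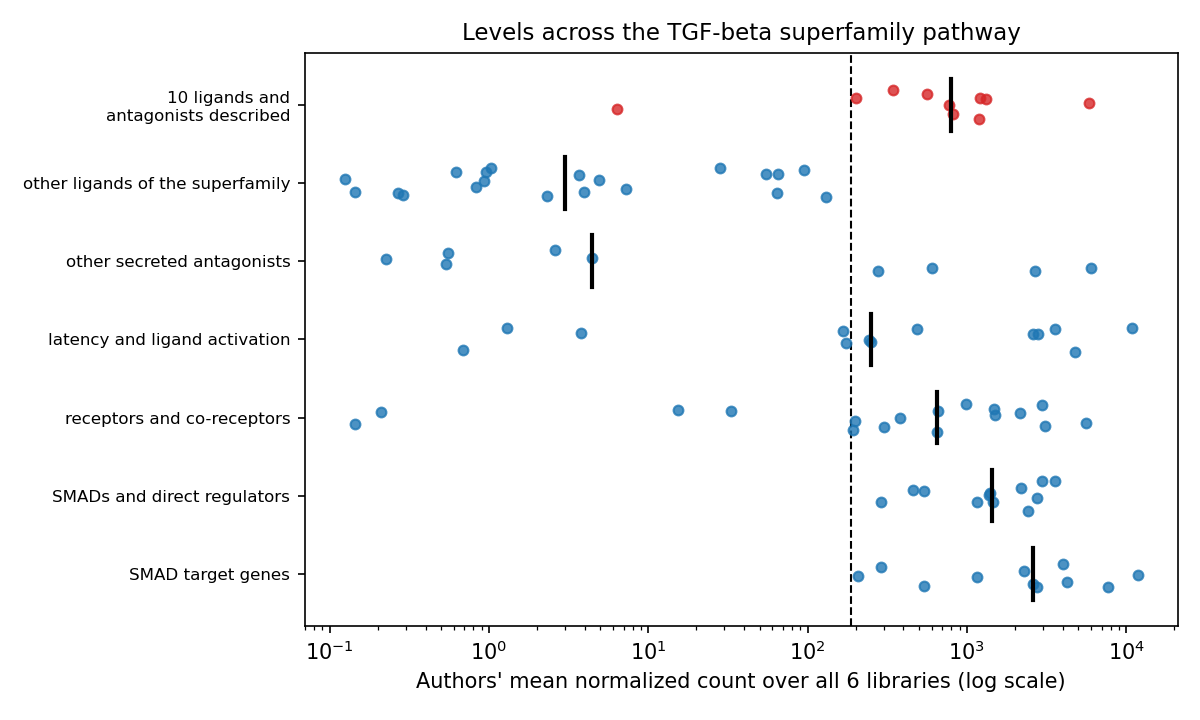
Mean normalized count (log axis, authors' mean over all 6 libraries) of each gene with a row, 1 point per gene, for the 10 genes described (red) and 6 pathway lists (blue), with a black bar at the median of each list and a dashed line at the median of all genes (187). The medians run from 2.99 for the other ligands to 2603 for the SMAD target genes, and points are spread vertically only for legibility. Values are not corrected for transcript length.

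Markers were checked against the labelled cell line. The mesenchymal genes VIM, FN1, SPARC, COL1A1, CDH2 and ZEB1 had means of 4093 or more, and VIM was at 47782. Of the 6 epithelial markers, KRT18 was at 435, CDH1 at 59.6, KRT8 at 57.3, CLDN4 at 27.4, KRT19 at 17.7 and EPCAM at 1.30, and KRT18 alone lay above the median gene. Of the receptors used to class a tumor as triple-negative, ESR1 was at 0.790, PGR at 0.801 and ERBB2 at 1221. These are RNA levels, and receptor protein was not measured here. WDR5, the silenced gene, had a mean of 1143 over both groups, in which its silencing cannot be seen. The blood cell marker PTPRC was at 44.7.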

How the data were processed

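RNA-seq was performed on 3 vehicle and 3 DOX cultures of BT-549/tet-WDR5shRNA cells. By the paper's methods and the labels, the authors prepared stranded poly(A) libraries, aligned reads to GRCh38 with STAR and normalized gene counts with DESeq2. The gene counter, the strand setting and any filter on low counts are not given in the sources used here. The paper names Trizol and the sample records a column kit. The time of treatment is from the paper. Per the file headers, the deposited value used is a signal, the mean over all 6 libraries of counts divided by size factors. The deposited table also holds the authors' own log2 fold changes with standard errors, test statistics and p-values of DOX against vehicle, which were not used. The planned tests of DOX against vehicle need values of single libraries and were not run, and protein sequences were not analysed.

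From the means, ranks, levels per kilobase and summaries of gene lists were computed, with Python 3.11.15, numpy 2.4.6, pandas 2.3.3 and matplotlib 3.10.9. Transcript lengths came from GENCODE 44. Of 19792 symbols, 17729 matched directly, 580 through a synonym in RefSeq and 1483 did not match. CCN2 was found under an older symbol. The means sum to 26551206, the lowest is 0.124, and 31.5% are under 10. Ranking, exon union and motif search were tested on simulated data. The genes named are the 10 and, in each pathway list, the 3 with the highest level per kilobase. ITGAV, ITGB6, ITGB8, FURIN, PCSK5, PCSK6, CHRD, RET, GFRAL and the activin and BMP receptors were named in addition after their values were seen. The 10 genes, the lists and the motifs were chosen with earlier results of these data known. With no replicate spread, an alternative was taken to move a value when it changed it by more than 1.5 times.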

Additional observations from a re-analysis of the deposited data

How the results depend on the processing

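All values rest on 1 mean per gene over both groups, so they carry no replicate error and low means such as that of NOG rest on few reads. Of the 10 genes, 9 lay above the median gene, 7 when the median was taken over genes with means of 1 or more and 6 over those of 10 or more. Per kilobase, 7 lay above the median gene by the median transcript length, 8 by the longest or the canonical transcript, and 9 by the union of exons or with no length correction. With a minimum of 1 in place of 10, 12 rather than 6 of the other ligands were counted. This list was the only one of the 6 whose count moved by more than 1.5 times under either minimum. Among genes with a mean of at least 10, the share of genes below TGFB3 was 36.3% and below BMP2 28.1%. For NOG the share fell to 14.9% among genes with a mean of at least 1. No paired analysis was possible because the table holds no values of single libraries, and for the same reason no library was left out and no other normalization was tried. The comparison of protein sequences was not run.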
